A study of Mus musculus with 19 samples.

Results

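miR-1, miR-133a, miR-133a*, miR-133b and miR-133b* are the 5 names of the miR-1 and miR-133 family among the 528 miRNA names of the deposited table, and were taken from it by name. They were selected with their levels in these libraries known, so the levels are described without a test. The libraries hold small RNA of 19 to 24 nt bound to Ago2, the protein that carries mature miRNAs, from mouse brain at postnatal day 56. Purkinje libraries (n = 3) came from the cerebellum, with Myc-tagged Ago2 precipitated by anti-Myc from 3 pooled tissues of C57BL/6 and black swiss background. Cerebellum libraries (n = 3) came from 1 tissue each of the same background, with endogenous Ago2 precipitated by anti-Ago2. PV (n = 2), SST (n = 2) and Gad2 (n = 3) libraries came from the neocortex by anti-Myc from 4 pooled tissues of C57BL/6 and 129 background. Camk2a libraries (n = 3, anti-Myc) and Neocortex libraries (n = 3, anti-Ago2) came from 1 neocortical tissue each of C57BL/6 and BALB/c background. PV and SST are interneuron classes marked by parvalbumin and somatostatin, Gad2 marks GABAergic neurons and Camk2a marks excitatory neurons. Antibody, pooling and strain thus change with the group and cannot be told apart from cell type in the comparisons they cross. That replicates came from separate animals is not stated, so their spread may be technical.

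miR-1 and miR-133 are known from heart and skeletal muscle, where they are made from shared precursor transcripts and regulate the growth and differentiation of muscle cells. A miRNA hairpin is cut into a duplex, of which Ago2 mostly keeps the guide strand, and the other strand is named with a star. miR-133a and miR-133b share their seed, the stretch at bases 2 to 8 that pairs with targets, and their mature strands are the same except at the 3′ end. In mouse (GENCODE annotation on GRCm38) Mir133b lies at chr1:20682769-20682887 on the plus strand, within the long non-coding RNA gene Gm28653, 3686 bases after Mir206. One copy each of the other family members lies without an overlapping gene at chr2:180389048-180389124 (Mir1a-1) and chr2:180398379-180398482 (Mir133a-2), both on the plus strand and 9254 bases apart.

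The strands of the Mir133b hairpin are shown, whose star strand was found in every Purkinje library and in no neocortical library. The RefSeq (GRCm38.p6) sequences at hand held mature strands for only 2 of the 5 members, miR-133b and miR-133b*. The strands of the other members are therefore not shown. Capitals mark the seed in the single strands, and both mature strands in the hairpin.
miR-133b: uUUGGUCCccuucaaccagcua
miR-133b*: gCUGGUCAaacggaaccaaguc
mir-133b hairpin: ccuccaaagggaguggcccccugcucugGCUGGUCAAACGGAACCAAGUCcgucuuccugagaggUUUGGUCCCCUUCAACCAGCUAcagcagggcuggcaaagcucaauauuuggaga

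Depth ran from 1229834 to 14249087 miRNA reads a library, and all 5 members passed the filter on low values. Levels are reads per 1000000 miRNA reads (RPM). They are proportions of all miRNA in a library, so fewer cells of a type cannot be told apart from less RNA per cell. The neuronal miRNA miR-124 ranked first or second in every library. miR-128, the other neuronal miRNA looked up, was lower in Purkinje (mean 2206 RPM) than in Cerebellum (19155 RPM). Against Neocortex (78483 RPM) it was lower in PV (1888 RPM), SST (2344 RPM) and Gad2 (9122 RPM), and higher in Camk2a (153461 RPM). miR-143, of smooth muscle, averaged 94.5 RPM in PV and 18.1 to 49.8 RPM in the other tagged groups. It averaged 1759 ± 36.6 RPM in Cerebellum and 4369 ± 359 RPM in Neocortex (SD, n = 3 each). The oligodendrocyte miRNA miR-219-5p averaged 60.2 ± 22.2 RPM in Purkinje and 47.2 ± 15.2 RPM in Cerebellum libraries. It averaged 1.88 to 10.0 RPM in the 4 tagged neocortical groups, against 23.3 ± 4.11 RPM in Neocortex. miR-338-3p, of the same cells, averaged 2946 ± 287 RPM in Purkinje and 3335 ± 85.5 RPM in Cerebellum. It averaged 658 to 1043 RPM in those 4 groups, against 2550 ± 603 RPM in Neocortex. The part of these other cells in the levels below was not tested.

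miR-133b was highest in Purkinje cells. It stood at 8326, 10717 and 8376 RPM in Purkinje libraries, against 533, 531 and 433 RPM in Cerebellum libraries. It reached 234 and 258 RPM in PV libraries, and 49.1, 66.6 and 54.8 RPM in Gad2 libraries. Every Purkinje library lay above every library of the other groups. The remaining neocortical groups were low, at 3.13 and 4.48 RPM in SST, 8.51 to 12.1 RPM in Camk2a and 9.35 to 16.1 RPM in Neocortex libraries. The order of means was Purkinje, Cerebellum, PV, Gad2, Neocortex, Camk2a and SST, and among neighbours only Neocortex and Camk2a overlapped.

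miR-133a had nearly the level of miR-133b in the cerebellum, and a higher level in every neocortical library. It measured 8020, 10404 and 8170 RPM in Purkinje libraries, against 531, 530 and 431 RPM in Cerebellum libraries. In PV libraries it reached 1429 and 2053 RPM, and in SST libraries 52.4 and 50.9 RPM, so these interneuron classes did not overlap. It stood at 364, 448 and 382 RPM in Gad2, at 123 to 136 RPM in Camk2a and at 83.7 to 99.1 RPM in Neocortex libraries. The order of means was Purkinje, PV, Cerebellum, Gad2, Camk2a, Neocortex and SST, in which Cerebellum and Gad2 overlapped.

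miR-1 was highest in PV cells instead. It measured 1849 and 2323 RPM in PV libraries, against 85.2 and 73.6 RPM in SST libraries. Gad2 libraries held 617, 513 and 569 RPM, Camk2a libraries 140, 172 and 181 RPM, and Neocortex libraries 306, 141 and 329 RPM. In the cerebellum it stood at 280, 283 and 243 RPM in Purkinje libraries, against 22.8, 32.2 and 29.5 RPM in Cerebellum libraries. Purkinje and Neocortex overlapped, as did Neocortex and Camk2a. Summed over the 5 names, the members took 1.83% ± 0.271 of reads in Purkinje, 0.103% ± 0.0114 in Cerebellum, 0.408% ± 0.0797 in PV and 0.0135% ± 0.000833 in SST libraries. The share was 0.102% ± 0.00139 in Gad2, 0.0305% ± 0.00262 in Camk2a and 0.0363% ± 0.0106 in Neocortex libraries (SD, n = 3, but 2 for PV and SST). If reads that match both miR-133a and miR-133b were counted under both names, which was not tested, these sums are too high, most of all in Purkinje and Cerebellum libraries.

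**Figure D1:**
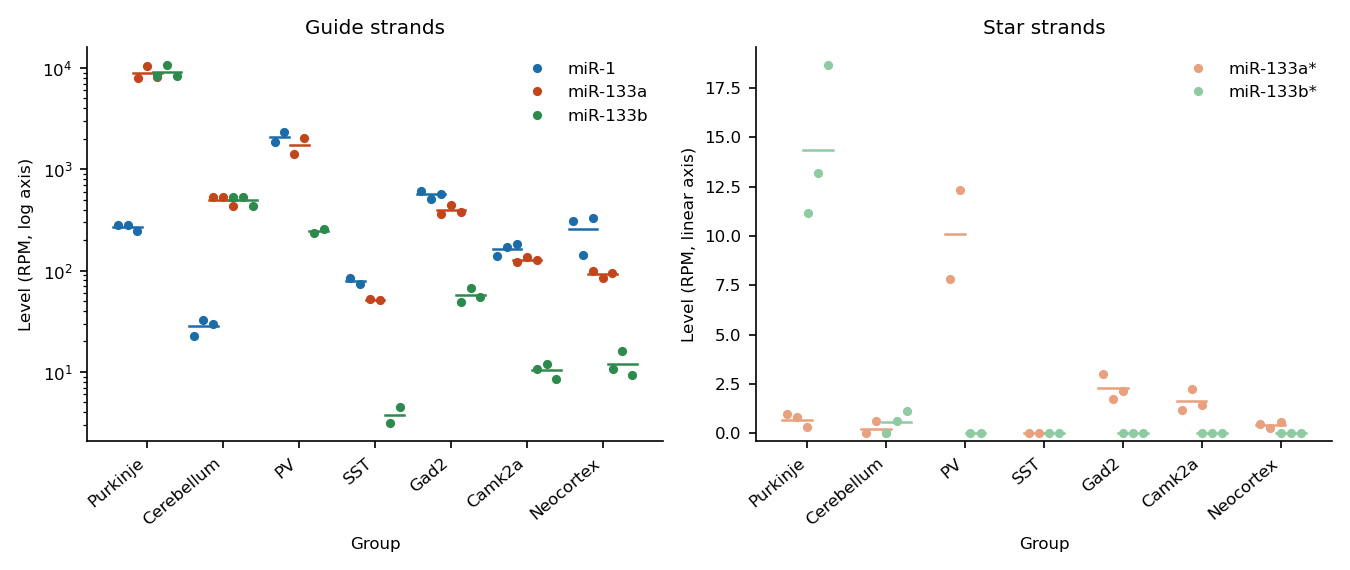
Level of each family member (y axis, RPM) in each library (points) by group (x axis), with bars at group means. The left panel has a log axis and shows the guide strands, and the right panel has a linear axis and shows the star strands, where miR-133b* is at 0 in all neocortical libraries.

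Differences between groups are given as log2 differences of group means of log2(value + 1) on the deposited scale, which understate low levels, with their standard errors. Purkinje exceeded Cerebellum by 4.19 ± 0.16 for miR-133b, 4.15 ± 0.16 for miR-133a and 3.26 ± 0.16 for miR-1. With miR-133b*, 4 of 5 members were apart there, beside 56.7% of all 522 miRNAs kept. Apart means that the groups did not overlap and differed by 2-fold or more, and shares of all miRNAs count both directions. The median over members was 4.15, against -0.19 over all miRNAs. Since the members were selected on these levels, nothing is read from such counts.

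Cerebellum was above Neocortex by 5.39 ± 0.25 for miR-133b and 2.43 ± 0.12 for miR-133a, while miR-1 differed by -3.12 ± 0.42, being lower in Cerebellum. These were the 3 members apart, beside 45.2% of all miRNAs. Purkinje exceeded Gad2 by 7.33 ± 0.18 for miR-133b and by 4.47 ± 0.15 for miR-133a, and miR-1 differed by -1.08 ± 0.10. All 5 members were apart, 3 of them higher in Purkinje, beside 45% of all miRNAs. miR-1 was no longer 2-fold apart there with TMM (-0.90) or relative log expression scaling (-0.81), nor miR-133a* with a pseudocount of 10 (-0.97). Oligodendrocyte miRNAs were higher in Purkinje than in Gad2 too, by 15.4-fold for miR-219-5p and 4.44-fold for miR-338-3p.

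Within the neocortex, PV exceeded SST by 6.00 ± 0.26 for miR-133b, 5.05 ± 0.26 for miR-133a and 4.71 ± 0.20 for miR-1 (standard errors over 2 libraries a group). With miR-133a*, 4 members were apart, beside 31% of all miRNAs. The values of both classes against Gad2 share the Gad2 libraries. PV exceeded Gad2 by 1.88 ± 0.18 for miR-1, 2.11 ± 0.28 for miR-133a and 2.12 ± 0.15 for miR-133b, with 4 members apart beside 23.9% of miRNAs. SST differed from Gad2 by -2.83 ± 0.13 for miR-1, -2.94 ± 0.09 for miR-133a and -3.88 ± 0.28 for miR-133b. There 4 members were apart and lower in SST, beside 26.4% of miRNAs apart in either direction (108 higher and 30 lower in SST). The smooth muscle miRNA miR-143 was higher in PV too, by 2.07-fold against SST and 2.42-fold against Gad2. Against Neocortex, miR-143 was 46.2-fold lower in PV. The part of smooth muscle in the PV levels was not tested.

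Against whole Neocortex, PV was higher for 4 members, beside 48.1% of miRNAs apart (97 higher and 154 lower in PV). SST was lower for 3 members, beside 46.4% of miRNAs apart (144 higher and 98 lower in SST). In SST, miR-133a* was not 2-fold apart with a pseudocount of 10 (-0.50). Gad2 exceeded Neocortex by 2.26 ± 0.27 for miR-133b and 1.22 ± 0.40 for miR-1, and by 4.30-fold for miR-133a, with 4 members apart beside 37.4% of miRNAs. Without Neocortex replicate 2, miR-1 was not 2-fold apart (0.83). Gad2 exceeded Camk2a by 2.44 ± 0.19, 1.63 ± 0.10 and 1.79 ± 0.14 for miR-133b, miR-133a and miR-1, with 3 members apart beside 31.6%. Camk2a and Neocortex were close: the difference was 0.48 ± 0.08 for miR-133a, -0.19 ± 0.28 for miR-133b and -0.57 ± 0.41 for miR-1. Only miR-133a* was apart, beside 35.6% of miRNAs, and not with a pseudocount of 10 (0.86).

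The ratio of miR-133b to miR-133a reads set the cerebellum apart. It was 1.04, 1.03 and 1.03 in Purkinje libraries and 1.00 in each Cerebellum library. It ran from 0.126 to 0.164 in PV, 0.0597 to 0.0880 in SST, 0.135 to 0.149 in Gad2, 0.0676 to 0.0889 in Camk2a and 0.0994 to 0.192 in Neocortex libraries. In Cerebellum libraries miR-133b exceeded miR-133a by only 3, 1 and 3 reads of 656, 1747 and 778, and in Purkinje libraries by 631, 781 and 697 reads. Because the strands are near-identical, reads of one may be counted under the other or under both, so both levels are uncertain, and the part of shared reads in these ratios was not tested. The ratio of miR-1 to miR-133a was 0.0306 ± 0.00392 in Purkinje and 0.0573 ± 0.0131 in Cerebellum libraries, and between 1.13 and 3.50 in every neocortical library.

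**Figure D2:**
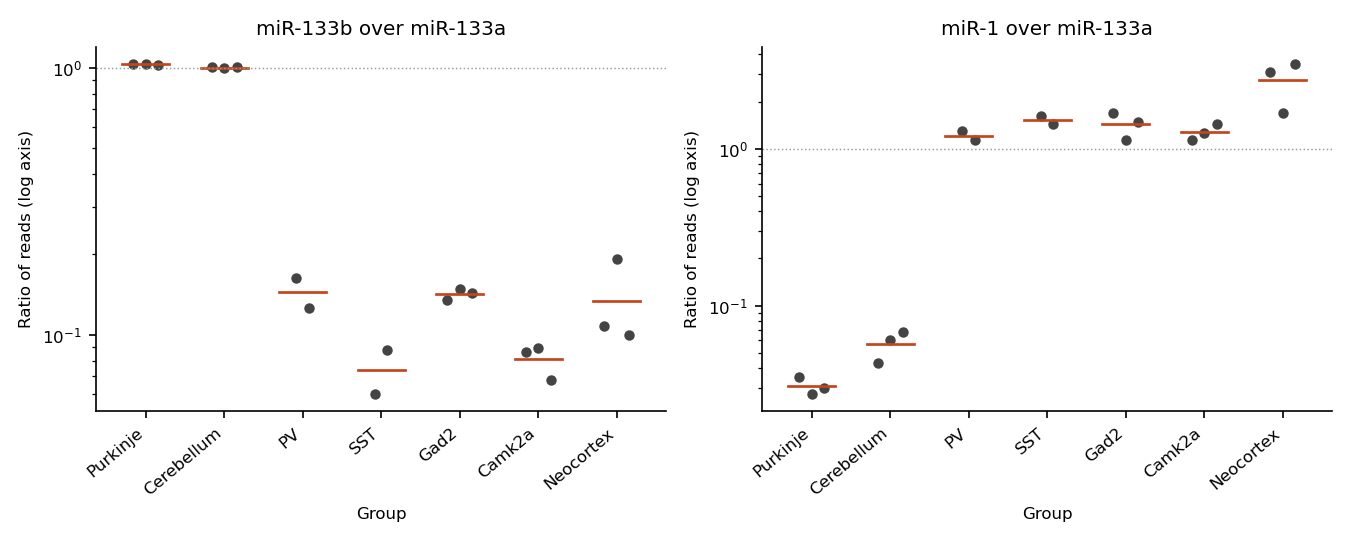
Ratio of reads (y axis, log scale) of miR-133b over miR-133a (left) and of miR-1 over miR-133a (right) in each library (points) by group (x axis), with bars at group means and a dotted line at 1. The 6 cerebellar libraries lie near 1 on the left and under 0.07 on the right.

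The star strand miR-133b* was found in Purkinje libraries at 11.1, 13.2 and 18.6 RPM (23, 33 and 63 reads), against 0, 0.607 and 1.11 RPM in Cerebellum libraries (0, 2 and 2 reads). It had no read in any of the 13 neocortical libraries, so Cerebellum and the neocortical groups overlapped at 0. The mean level of miR-133b* in Purkinje was 137-fold the floor of 3 reads over the Gad2 group. It was 106-fold the floor over PV and 81.5-fold the floor over Neocortex. The floor over SST was higher, at 0.803 RPM, since that group held the fewest reads.

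miR-133a* was highest in PV libraries, at 7.82 and 12.3 RPM (84 and 141 reads), with no read in SST libraries. The mean PV level was 12.5-fold the floor of 3 reads over the SST group. It stood at 3.02, 1.75 and 2.15 RPM in Gad2 and at 1.16, 2.26 and 1.42 RPM in Camk2a libraries. The Neocortex held 8 reads, Purkinje 5 and Cerebellum 2, the last all in 1 library, so these levels rest on very few reads and overlap.

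The share of the star arm among reads of both arms has the guide level as its main part. The members were selected on that level, so their shares are described with counting intervals (95%, exact Clopper-Pearson) and without a test. Across all 156 hairpins with enough reads of both arms, 73.1% differed between any of the 7 groups by limma and 74.4% by an edgeR test added after the data were seen, and nothing is read from this about the members.

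For the miR-133b hairpin the star share was 0.164% in Purkinje (119 of 72364 reads, 0.136% to 0.197%) and 0.126% in Cerebellum (4 of 3185 reads, 0.0342% to 0.321%). In PV libraries 0 of 5470 reads were star reads, which allows a share of up to 0.0548%. Here and below, the limit for 0 reads is 3 reads over the reads of both arms. The upper ends of the Clopper-Pearson intervals lie higher, at 0.0674% in PV, 0.234% in Gad2 and 1.04% in Camk2a. In the other neocortical groups a share as high as that of Purkinje was not detectable, since 0 reads allow up to 0.190% in Gad2, 0.847% in Camk2a, 1.58% in Neocortex and 20% in SST. Over the 13 libraries together, 0 of 7605 reads allow up to 0.0394%, and up to 0.0645% without PV replicate 2, as PV gave most of these reads.

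For the miR-133a hairpin the star share was 0.00713% in Purkinje (5 of 70141 reads, 0.00231% to 0.0166%) and 0.0630% in Cerebellum (2 of 3176 reads, 0.00763% to 0.227%). It was 0.576% in PV (225 of 39055 reads, 0.503% to 0.656%), 0.631% in Gad2 (71 of 11246 reads, 0.493% to 0.796%) and 1.27% in Camk2a (56 of 4398 reads, 0.963% to 1.65%). In Neocortex it was 0.506% (8 of 1580 reads, 0.219% to 0.995%), and 0 of 192 reads in SST allow up to 1.56%. All 3 Purkinje libraries lay under every PV, Gad2, Camk2a and Neocortex library.

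The denominator of this share moved with miR-133b, since the guide reads of miR-133a and miR-133b were nearly equal in the cerebellum. With miR-1 as the denominator the order of groups was another one. miR-133a* had 2.51 ± 1.16 reads per 1000 miR-1 reads in Purkinje and 6.29 ± 10.9 in Cerebellum libraries, where 1 library held both reads. It had 4.77 ± 0.760 in PV, 4.03 ± 0.767 in Gad2, 9.76 ± 2.95 in Camk2a and 1.65 ± 0.109 in Neocortex libraries, and no read in SST (SD, n = 3, but 2 for PV). Cerebellum thus lay above Neocortex by mean on this denominator and below it on the other. The part of miR-133b reads in the low share of Purkinje was not tested.

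**Figure D3:**
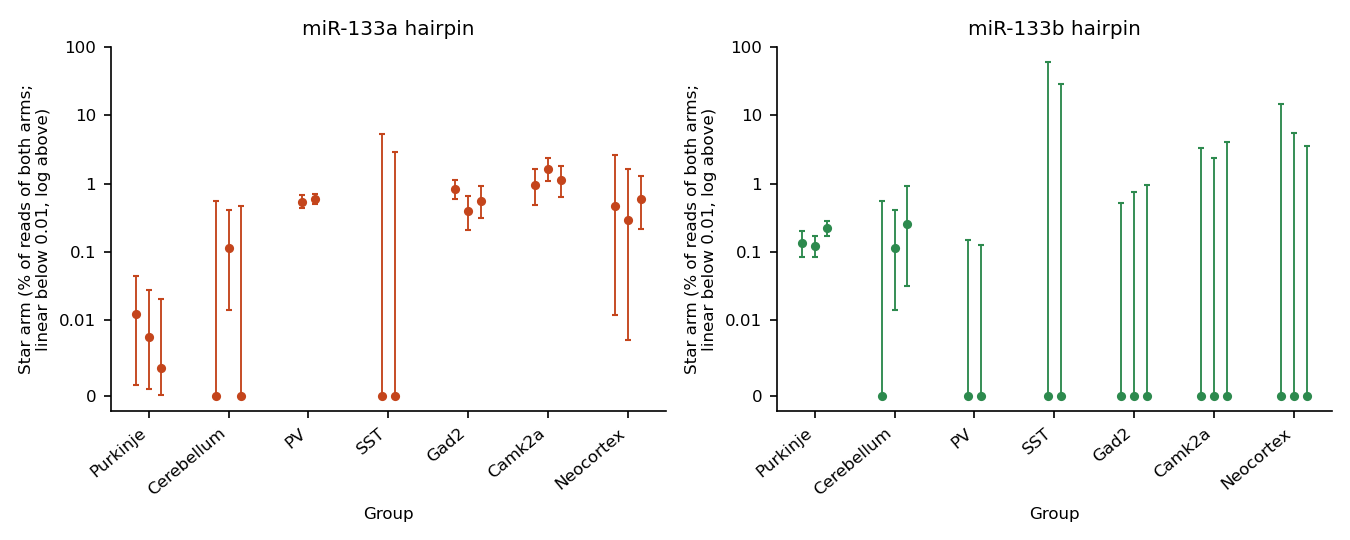
Star arm as a percentage of the reads of both arms (y axis, linear below 0.01 and log above) of the miR-133a hairpin (left) and the miR-133b hairpin (right) in each library (points) by group (x axis). Error bars are 95% exact Clopper-Pearson intervals for counting error only, and are wide where few reads were present, as in SST.

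Of the other miRNAs of striated muscle looked up, miR-499, encoded within the myosin gene Myh7b, was listed. miR-206, miR-208a and miR-208b were not listed under these names. miR-499 did not share the Purkinje maximum. miR-499 averaged 2.83 ± 0.423 RPM in Purkinje, 20.3 ± 4.28 RPM in Cerebellum, 66.8 ± 12.0 RPM in PV and 31.9 ± 3.16 RPM in SST libraries. It averaged 38.3 ± 0.396 RPM in Gad2, 17.8 ± 4.75 RPM in Camk2a and 33.0 ± 4.87 RPM in Neocortex libraries (SD).

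Likeness of pattern was described by Pearson's r of log2 levels over the 7 group means, among 317 miRNAs of at least 10 RPM. The points share libraries and scaling, and no p is given. miR-345-5p was nearest to both miR-133a (r = 0.95) and miR-133b (r = 0.95). Next for miR-133a came miR-124 (0.87), miR-28* (0.84), miR-30a (0.81) and miR-30c (0.75), and for miR-133b miR-28* (0.94), miR-30a (0.80), miR-124 (0.80) and miR-30b (0.77). miR-1 was most like miR-434-3p (0.80), miR-325 (0.77), miR-136* (0.74), miR-380-5p (0.72) and miR-496 (0.72). Pearson's r leaves out the size of differences. Group means of miR-434-3p ran from 2149 to 5074 RPM, against 28.1 to 2086 RPM for miR-1. Those of miR-345-5p ran from 45.1 to 259 RPM, against 51.6 to 8865 RPM for miR-133a. Among the members, r was 0.96 between miR-133a and miR-133b, 0.38 between miR-1 and miR-133a, and 0.12 between miR-1 and miR-133b. Reads of miR-133a and miR-133b may be counted under both names, which was not tested. Their r and their common neighbours are therefore not separate observations.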

How the data were processed

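The submitters' processing notes name the build mm9 and the aligner Bowtie, whose version was not given in the sources used here. The deposited signal is each library's read count per miRNA name scaled by the authors to a common total. Per the file headers that is 1000000. The columns add up to 10000000, and RPM is therefore the deposited value over 10. Whole reads were recovered from it, with 100% of values within 0.1 of a whole number. Groups follow the sample titles. The members and lists were chosen with earlier results of these data known. Levels are described on log2(deposited value + 1), for the 522 miRNAs that reached a value of 1 in 2 or more libraries. As a check over all miRNAs, limma called 455 and edgeR on recovered reads 464 as differing between any groups. Named miRNAs are the members, other striated muscle miRNAs, the 5 nearest in pattern and markers of neurons, smooth muscle and oligodendrocytes. Markers of red blood cells, endothelium, leukocytes and choroid plexus were looked up too, and their levels are not given here. Arm shares of all hairpins were fitted with limma 3.58.1 (R 4.3.3) with a trend, on log2 ratios of recovered reads with 0.5 added to each arm, for hairpins with 20 or more summed reads in 2 libraries and 5 or more mean reads in each arm. Benjamini-Hochberg adjustment ran over all hairpins, and an adjusted p under 0.05 was called. Both tests were tried on simulated data. There limma made more false calls than its threshold allows at low read numbers, and edgeR 4.0.16, on star reads with guide reads as offset, was added after that was seen. Neither is used for a member, because the guide level on which members were chosen enters the ratio. Alternatives were the pseudocount, TMM and relative log expression scaling, filters, trend, replicate block and leaving out each library. Intervals and floors of 3 reads account for counting error alone: the libraries are not stated to carry molecular identifiers, so PCR copies are not independent molecules.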

Additional observations from a re-analysis of the deposited data

Results flagged for a closer look

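PV and SST libraries lay on opposite sides of the whole Neocortex for the 3 guide strands. Against Neocortex, the log2 difference of miR-1 was 3.10 in PV and -1.61 in SST. For miR-133a it was 4.22 in PV and -0.83 in SST, and for miR-133b 4.38 in PV and -1.62 in SST. Both PV libraries were above, and both SST libraries below, all 3 Neocortex libraries. The difference between these effects was not tested, both share the Neocortex libraries, and the members were selected on their levels. SST libraries held 1278770 to 2457681 reads, against 10739153 to 11438142 in PV libraries.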

How the results depend on the processing

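Of 39 member differences reported as apart, 5 were no longer 2-fold under some alternative, each named beside its comparison, and none changed direction. Leaving out each library moved none of 232 level values beyond the spread between replicates. That spread includes the library left out, and in groups this small leaving out a single library cannot move a mean so far. Nothing is therefore read from this count. Scaling also moved the median of all miRNAs, which for PV against SST was -0.42 as deposited and -0.0036 with TMM. TMM scaling gave 3.56, 4.45 and 4.49 (miR-1, miR-133a, miR-133b) for Purkinje against Cerebellum, 5.18, 5.52 and 6.46 for PV against SST and -3.29, -3.39 and -4.32 for SST against Gad2. For miR-133a it gave 0.78 for Camk2a and -1.13 for SST against Neocortex. Relative log expression scaling gave 5.24, 5.58 and 6.52 for PV against SST, -3.27 (miR-1) and -3.37 (miR-133a) for SST against Gad2, and -0.81 (miR-1) and 4.74 (miR-133a) for Purkinje against Gad2. For miR-133a it gave 2.73 for Cerebellum, 0.72 for Camk2a and -1.19 for SST against Neocortex. With a pseudocount of 10, miR-133a* against Neocortex was 0.86 in Camk2a, 1.21 in Gad2 and 2.94 in PV.

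The number of hairpins called was less stable. Gad2 against Camk2a gave 4 with limma, 9 with 1 read added, 0 without a trend, 15 with edgeR and 1 to 8 when single libraries were left out. Gad2 against Neocortex gave 21, 39 with edgeR and 11 to 27 with libraries left out. Camk2a against Neocortex gave 51, and 28 to 62 with libraries left out. PV against SST gave 5, 1 with edgeR and 1 to 5 with libraries left out. For the log2 arm ratios of the members, near-zero differences turned with 1 read added: -0.27 for miR-133a in Gad2 against Neocortex and -0.44 for miR-133b in Purkinje against Cerebellum. Leaving out libraries gave -0.26 to 0.26 and -0.45 to 0.59 for these.

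Deviations of same-numbered libraries from their group means were weakly correlated (52 pairs, r from -0.23 to 0.18). In groups this small, that cannot settle whether equal numbers mark paired samples. With the replicate block 114 hairpins differed between any groups, as without it.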
